A study of Homo sapiens with 24 samples.

Results

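Desmosomes are spot-like junctions that rivet neighbouring epithelial cells together. Their adhesive part is built from desmosomal cadherins, the desmocollins (DSC) and desmogleins (DSG), which span the membrane and bind their counterparts on the next cell. Inside the cell the cadherin tails hold armadillo proteins, plakoglobin (JUP) and the plakophilins (PKP), and these in turn hold desmoplakin (DSP), the plakin that anchors keratin filaments. The H3K27Ac mark, acetylation of histone H3 at lysine 27, lies at active promoters and enhancers, so it was read here around 9 desmosome genes, namely DSC2, DSC3, DSG2, DSG3, DSP, PKP1, PKP2, PKP3 and JUP, of the 21569 genes named in the deposited tables.

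A region belonged to these genes where the authors' annotation named one of them over the region or on either side of it. This gave 36 of 50284 regions tested between shANCO1 and shCTRL in 10A and 42 of 44790 in DCIS. Against input it gave 17 of 15490 regions in 10A shCTRL cells, 24 of 28607 in 10A shANCO1 cells, 14 of 15482 in DCIS shCTRL cells and 24 of 16692 in DCIS shANCO1 cells. A region between DSG3 and DSG2 can name both genes and was counted once in these totals.

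Both lines are established human mammary epithelial cell lines. MCF10A (10A) is immortalized and non-cancerous, and MCFDCIS (DCIS) descends from it through xenografts of oncogene-transfected cells and serves as a model of ductal carcinoma in situ. Each line carried a lentiviral hairpin against ANCO1, the product of ANKRD11 (shANCO1), or a control hairpin (shCTRL), with 3 immunoprecipitated and 3 input libraries per combination, 24 libraries in 8 groups. All cells grew in the same serum medium with EGF, hydrocortisone, insulin and cholera toxin, and the study used 1 of its shANCO1 lines per cell line for this assay, after selection of infected cells with puromycin. The files held 1 line per region for whole groups, with no value per library, so neither the spread between the 3 libraries nor the depth was known, and every FDR below is that of the authors' csaw test across those libraries. The labels do not say whether the 3 libraries came from separate cultures.

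The files did not measure the level of ANCO1. At its own gene, ANKRD11, 7 of 20 regions were up in 10A (35%), where 43.6% of all tested regions were, and 8 of 16 in DCIS (50%), where 23.6% were. Of 7 basal epithelial marker genes, 2 had an enriched promoter-coded region in 10A shCTRL cells (KRT5 and TP63), 4 in 10A shANCO1 cells and 5 in each DCIS group, where TP63 was not among them. KRT14 had none in any group. Of 7 markers of blood, endothelium, liver and muscle, only PECAM1 had one, in all 4 groups.

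More regions of the desmosome genes gained H3K27Ac in DCIS than in 10A. By the deposited csaw test, 21 of 42 regions (50%) passed an FDR under 0.05 and were up in DCIS shANCO1 cells, against 23.6% of all tested DCIS regions. In 10A, 11 of 36 (30.6%) were up, against 43.6% of all tested regions, so there the share of these genes lay below that of the table. No desmosome region was down by csaw in either line, also at an unadjusted p under 0.05, where 14 were up in 10A and 24 in DCIS. At an FDR under 0.05, the share of all regions down was 0.225% in 10A and 4.86% in DCIS. The share of all regions passing the unadjusted threshold was not counted. The median log2 fold change was 1.21 over the DCIS regions, against 0.52 over all regions of that table, and 0.66 over the 10A regions, against 0.76. The tables are not centred on 0. In 10A, 34 of 36 regions had a positive value (94.4%), against 91.8% of all regions, and in DCIS 37 of 42 (88.1%), against 66.9%.

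Single windows, taken to be the units that the authors merged into regions, gave shares in the same order. In DCIS, 179 of 611 windows in desmosome regions were up (29.3%), against 17.5% of all windows, and in 10A, 84 of 540 were up (15.6%), against 36.6%. No window of these regions was counted as down in either line. The count does not follow the sign alone, since the DSG3 promoter region in DCIS had -1.06 and 0 of 44 windows down. The rule by which a window was counted as up or down was not known here. At least 1 region was up for 8 of 9 genes in 10A, PKP2 being the exception, where 74.3% of all genes had one. In DCIS, it was 7 of 9 genes, DSC2 and PKP3 being the exceptions, where 32.2% of all genes had one. A difference between the lines was not tested, since no value per library was at hand.

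**Figure D1:**
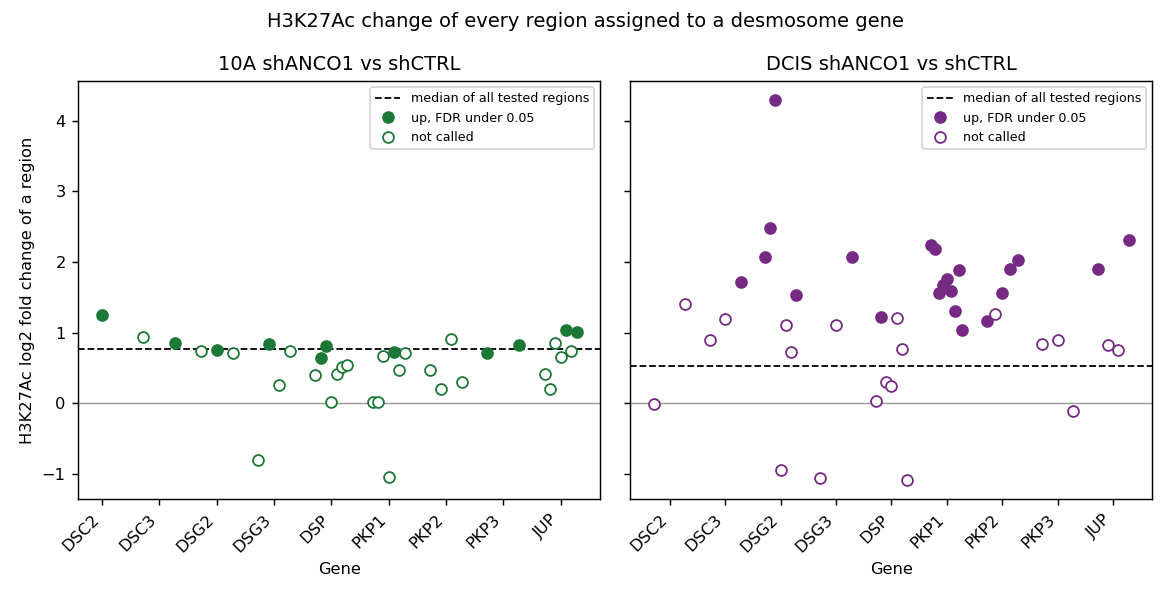
Each point is 1 region of a desmosome gene, in genomic order within the gene, and the vertical axis is its log2 fold change of H3K27Ac in shANCO1 over shCTRL cells in 10A (left) and DCIS (right). Filled points passed an FDR under 0.05, the dashed line is the median of all tested regions (0.76 and 0.52), and the highest point, at 4.30, lies upstream of DSG2 in DCIS.

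The up regions were then placed against the start sites of the genes. A promoter region was taken as the region over the transcription start site (TSS) of the gene, or otherwise the nearest region that the authors coded as promoter. In 10A, 5 of 8 promoter regions were up (DSC2, DSC3, DSG2, DSP and PKP3), close to the 61.1% of all promoter regions in that table, whereas 6 of the 28 other regions were up (21.4%). Of regions that were the promoter region of no gene at all, 6 of 27 were up (22.2%), against 38.7%. In DCIS, 2 of 9 promoter regions were up (PKP1 and PKP2), against 8.73%. The PKP1 one is the nearest promoter-coded region and begins 26395 bp past the start site, and without it 1 of 8 was up (12.5%). Of the 33 other DCIS regions, 19 were up (57.6%), and of those that were the promoter region of no gene, 19 of 31 (61.3%), against 28.3%. By csaw, 0 of the 5 DCIS regions that covered a start site were up, and 2 of them had an unadjusted p under 0.05. In contrast, all 9 DCIS regions that lay wholly upstream of the start site of a desmosome gene they named were up, with a median log2 fold change of 2.18, where 18.3% of all such upstream regions were up. They were 3 at DSG2, 2 each at PKP1 and PKP2, and 1 each at DSC3 and JUP. The 3 at DSG2 all lay within the span of the 10A region chr18:31486901-31491800, so the 9 are not all separate loci. Only chr18:31490001-31490500 at DSG2, chr12:32897101-32898000 at PKP2 and chr17:41792201-41794000 at JUP overlapped a region enriched over input in DCIS shANCO1 cells. The others overlapped no enriched region of these genes in either DCIS group. In 10A, 1 of 6 upstream regions was up, at JUP, against 45.2%. This count by position was added after the values were seen. Of regions wholly inside introns, 10 of 21 were up in DCIS (47.6%), against 26.4% of all such regions, and 4 of 20 in 10A (20.0%), against 35.5%.

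The cadherins carried the widest range of values. In DCIS their 14 regions ran from -1.06 to 4.30 with a median log2 fold change of 1.14, against 0.52 over all regions. Of them, 5 were up, where 23.6% of all DCIS regions were. In 10A, 4 of 9 were up and the median was 0.75, both near the 43.6% and 0.76 of all 10A regions. DSG2 encodes the desmoglein found in nearly all desmosome-bearing epithelia and lies at chr18:31498177-31549008 on the plus strand (GRCh38). Its promoter region in 10A, chr18:31497501-31499600, spans exon 1 and part of intron 1 and was up by a log2 fold change of 0.75 (FDR 0.00183, 11 of 20 windows up). In DCIS the region at nearly the same place, chr18:31497601-31499600, had a log2 fold change of -0.95 and was not called (FDR 0.412, 0 of 17 windows up).

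The DSG2 gains of DCIS lay elsewhere. Upstream of the gene, between DSG3 and DSG2, chr18:31490901-31491100 was up by 4.30 on the log2 scale (FDR 1.05e-08), the largest value of any desmosome region, although it rests on 1 window. Beside it, chr18:31490001-31490500 was up by 2.48 (FDR 5.09e-06) with 4 of 4 windows up, and chr18:31488601-31488800, which names DSG3 as well, by 2.07 (FDR 0.000647) with 1 window. All 3 lie outside any exon or intron of the canonical transcripts of the 2 genes, 7077 to 9377 bp before the DSG2 start site. Within intron 1 of DSG2, chr18:31513101-31513700 was up by 1.53 (FDR 0.00177, 5 of 5 windows).

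The same intergenic stretch was enriched over input in 10A. In 10A shCTRL cells, chr18:31490901-31491400 was enriched over input by 6.78 on the log2 scale, and in 10A shANCO1 cells chr18:31490601-31491600 by 4.70. Between them, the 10A region chr18:31486901-31491800 changed by 0.74 and was not called (unadjusted csaw p 0.0432, FDR 0.0847), with 4 of 45 windows up. DCIS shCTRL cells had no enriched region there, and DCIS shANCO1 cells had chr18:31490201-31490400, enriched by 6.94. Hence both 10A groups had an enriched region somewhere in the stretch, and in DCIS only shANCO1 cells had one. The DCIS shANCO1 region shared no base with the enriched regions of either 10A group. The DCIS shANCO1 region lies inside the tested region chr18:31490001-31490500. The region with the largest gain, chr18:31490901-31491100, overlapped no enriched region in either DCIS group, and neither did chr18:31488601-31488800. The regions of each group were tested separately, so only the direct comparison above tests the change.

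The reference sequence under the 200-base region with the largest gain is shown first, followed by the 300 bases around the DSG2 start in RefSeq (GRCh38.p14, chr18:31497927-31498226), both on the plus strand. Capitals mark matches, on either strand, to TGACTCA or TGAGTCA (AP-1), GGAATG (TEAD), TTCNNNGAA (STAT) or CACCTG (the E-box of SNAI and ZEB factors).
DSG2 upstream, chr18:31490901-31491100: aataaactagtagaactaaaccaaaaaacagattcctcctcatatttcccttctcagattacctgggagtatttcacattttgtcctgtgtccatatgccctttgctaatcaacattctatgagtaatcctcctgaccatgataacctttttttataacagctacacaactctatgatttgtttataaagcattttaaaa
DSG2 promoter: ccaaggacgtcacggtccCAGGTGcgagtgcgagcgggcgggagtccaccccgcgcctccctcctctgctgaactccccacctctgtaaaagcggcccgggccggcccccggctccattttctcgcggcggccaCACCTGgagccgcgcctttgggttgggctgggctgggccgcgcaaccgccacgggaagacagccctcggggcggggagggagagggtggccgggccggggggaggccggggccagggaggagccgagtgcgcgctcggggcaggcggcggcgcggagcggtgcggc
The upstream stretch had a GC content of 33.0% and no match to any of the 4 motifs. The promoter had a GC content of 76.7% and 2 E-box matches, a motif held by 20.6% of the 35116 RefSeq promoters of this length.

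DSG3, a desmoglein of basal layers of stratified epithelia, lies next to DSG2 at chr18:31447741-31478702 on the plus strand and was acetylated in all 4 groups. Its promoter region was not called in either line, with a log2 fold change of -0.81 in 10A (FDR 0.225) and -1.06 in DCIS (FDR 0.510). The adjoining piece over intron 1, chr18:31451201-31455500 in 10A, was up by 0.83 (FDR 0.0262), with 4 of 41 windows up. Its DCIS counterpart, chr18:31450801-31455300, had 1.10 and was not called (FDR 0.325, 0 of 39 windows). These pieces overlap at their edges and were tested as separate regions, and the sign at DSG3 depends on the piece that is read.

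The desmocollin promoter regions had positive values in both lines and passed the FDR in 10A. DSC2, the desmocollin of most epithelia, lies at chr18:31058840-31102522 on the minus strand, and its promoter region was up in 10A by 1.25 (FDR 0.00133, 15 of 23 windows), the largest gain of any desmosome region in that line. In DCIS the promoter region had a log2 fold change of 1.41 and was not called (FDR 0.188, 0 of 25 windows). This region also names the antisense gene DSCAS, and ChIP reads carry no strand that would tell them apart. DSC3, a desmocollin of basal cells, lies at chr18:30989365-31042815 on the minus strand. Its promoter region was up by 0.85 in 10A (FDR 0.0371) and had 1.18 in DCIS (FDR 0.130). DCIS gained instead a region 3459 bp before the DSC3 start, chr18:31046201-31046800, by 1.72 (FDR 0.00213, 5 of 5 windows), where no DSC3 region was tested in 10A.

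**Figure D2:**
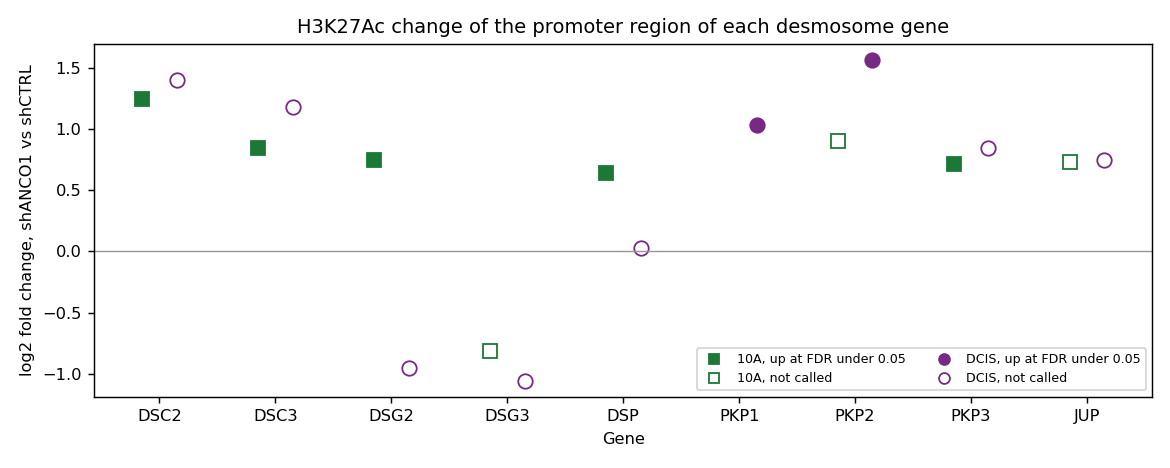
The vertical axis is the log2 fold change of H3K27Ac, shANCO1 over shCTRL, of the promoter region of each gene, with squares for 10A and circles for DCIS, filled where the FDR was under 0.05. In 10A, 5 of 8 were up, and in DCIS only PKP1 and PKP2, of which the PKP1 region begins 26395 bp past the start site, while DSG2 and DSG3 had negative values in DCIS that were not called.

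The plakophilins held most of the DCIS gains. Of their 17 DCIS regions, 13 were up, against 23.6% of all tested DCIS regions, and the median log2 fold change was 1.57. PKP1 had 9 of these up regions and PKP2 had 4, while 0 of 3 PKP3 regions were up. In 10A, 3 of 13 were up, against 43.6%, with a median of 0.47. PKP1, the plakophilin most typical of stratified epithelia, lies at chr1:201283452-201332993 on the plus strand. In DCIS all 9 of its regions were up, by 1.03 to 2.24 on the log2 scale, and 100 of their 129 windows were up. Of genes with 5 or more regions in the DCIS table, 1.36% had every region up, and PKP1 was the only such gene among the 4 desmosome genes with that many regions. NECTIN4, an adherens junction gene read below, also had 6 of 6 DCIS regions up, with a median of 2.39. In 10A, none of the 3 desmosome genes with 5 or more regions had every region up, against 2.40% of all such genes. There PKP1 had 1 of 7 regions up, with values from -1.05 to 0.72 and 2 of 64 windows up.

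No region covered the PKP1 start site in any table. The gains lay upstream, in intron 1 and in intron 2. The strongest by FDR, chr1:201307001-201310000 in intron 2, was up by 1.89 in DCIS (FDR 2.61e-05), with all 28 windows up. The 10A regions within it, chr1:201307501-201308700 and chr1:201309101-201309500, had 0.46 (FDR 0.387) and 0.70 (FDR 0.108). The largest fold change, 2.24 (FDR 4.61e-05, 11 of 12 windows), was upstream at chr1:201274701-201276300, where the 10A regions had 0.018 and 0.0087. At chr1:201299201-201301400 in intron 2 the representative windows took opposite signs, 1.59 in DCIS (FDR 0.000135) and -1.05 in 10A. The 10A region, chr1:201299001-201300800, was not called (FDR 0.152), with 0 of 17 windows up and 0 down. Within it lay chr1:201300201-201300500, which was enriched over input in 10A shANCO1 cells but not in 10A shCTRL cells. Only chr1:201302101-201303200 was up in both lines, by 1.30 in DCIS (FDR 0.0135) and 0.72 in 10A (FDR 0.0434).

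Against input, PKP1 had no enriched region in 10A shCTRL cells and 1 of 300 bp in 10A shANCO1 cells. DCIS shCTRL cells had 4 regions covering 1800 bp, all between 25495 and 28794 bp past the start site. DCIS shANCO1 cells had 5 regions covering 5400 bp, and the added ones reached to 12695 bp from the start. The enriched length at PKP1 was thus greatest in DCIS shANCO1 cells.

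**Figure D3:**
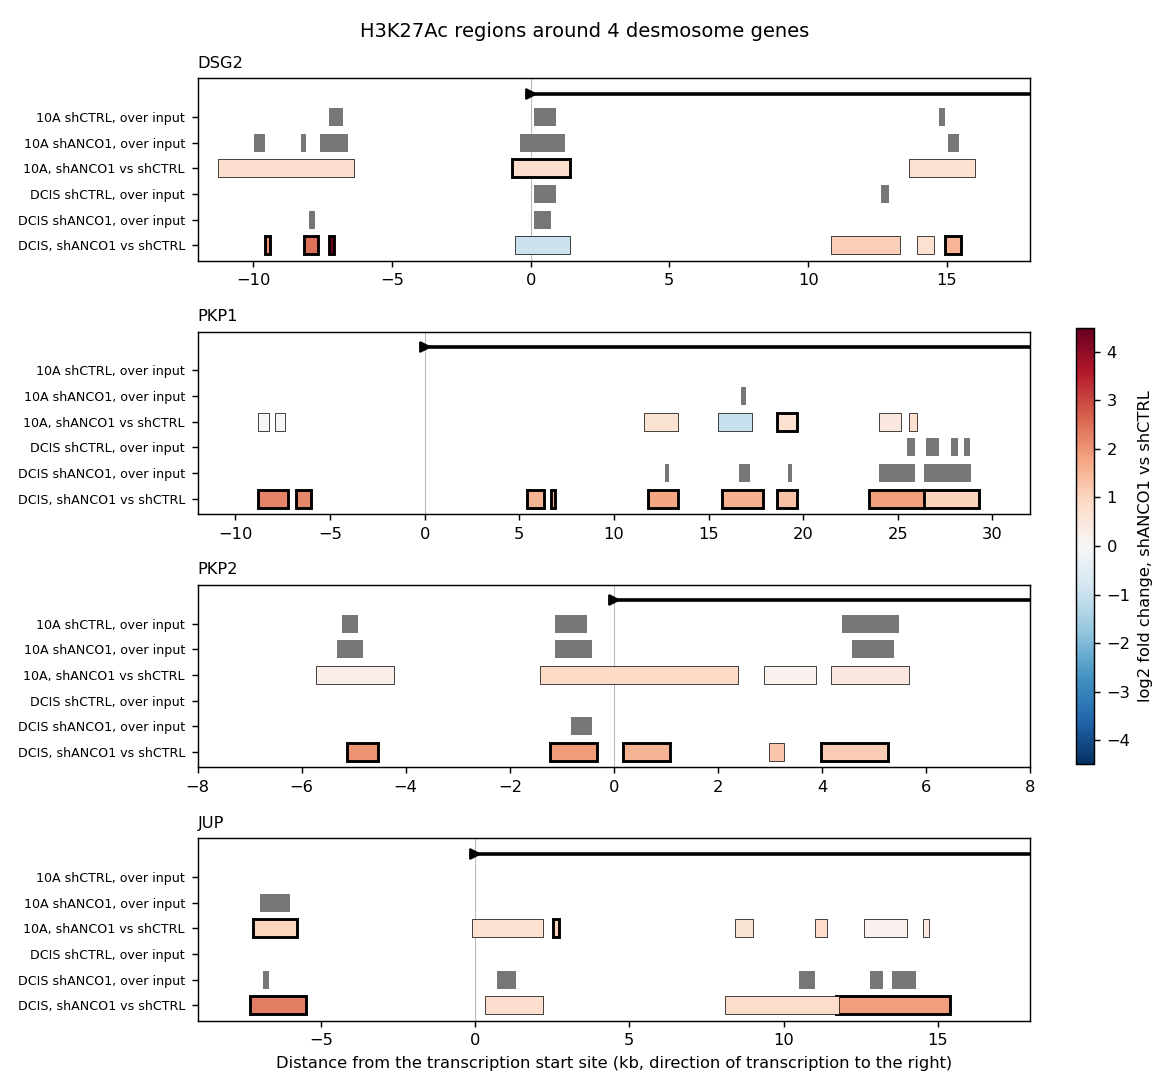
Regions around DSG2, PKP1, PKP2 and JUP are drawn to scale by distance from the TSS in kb, with the gene as an arrowed line cut at the edge of the panel. Grey bars are regions enriched over input in each group, and coloured bars are tested regions with their log2 fold change in shANCO1 over shCTRL cells, with a thick outline where FDR was under 0.05. In DCIS all 9 PKP1 regions and every region left of the start site in these 4 panels have the thick outline.

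For PKP1, the middle 300 bases of the intron 2 region with the lowest FDR read as follows on the plus strand, with motif matches in capitals as above.
PKP1 intron 2, chr1:201308351-201308650: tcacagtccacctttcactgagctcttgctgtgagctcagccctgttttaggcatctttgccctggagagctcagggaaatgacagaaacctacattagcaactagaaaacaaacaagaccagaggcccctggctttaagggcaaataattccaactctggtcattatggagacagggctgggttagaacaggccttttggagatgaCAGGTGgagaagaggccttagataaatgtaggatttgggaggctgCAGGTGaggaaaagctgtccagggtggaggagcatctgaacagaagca
This stretch held 2 E-box matches. Over the full length of the desmosome regions that were up there were 19 AP-1 matches, of which PKP1 had 6, PKP3 4, JUP 3, DSC3 and DSG3 2 each, and DSP and PKP2 1 each. DSC2 and DSG2 had 0. These counts grow with the length searched, and no like count was made over all up regions. The 6 of PKP1, with 12 bases on each side on the plus strand, are shown because they lie in 4 different regions that were up in DCIS.
PKP1 chr1:201275090-201275120: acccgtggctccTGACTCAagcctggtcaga
PKP1 chr1:201275451-201275481: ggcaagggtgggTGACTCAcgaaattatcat
PKP1 chr1:201296085-201296115: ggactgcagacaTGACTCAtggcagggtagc
PKP1 chr1:201300044-201300074: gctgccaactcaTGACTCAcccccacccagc
PKP1 chr1:201307408-201307438: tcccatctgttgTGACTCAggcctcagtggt
PKP1 chr1:201307435-201307465: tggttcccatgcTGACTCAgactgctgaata
All 6 have the letters TGACTCA on that strand. In the 500 bases at the midpoint of a region, however, AP-1 letters were about as frequent at desmosome genes as elsewhere at this width, with 6 of 42 DCIS regions (14.3%) against 15.4% of all DCIS regions, and 7 of 36 10A regions (19.4%) against 18.3%. Among up regions alone, 5 of 21 at desmosome genes in DCIS and 2 of 11 in 10A held them, against 25.5% and 20.3% of all up regions.

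The other motifs were counted in the same windows. TEAD letters lay in 28.6% of DCIS desmosome regions against 27.1%, and in 25.0% against 27.9% in 10A. STAT letters lay in 9.52% against 14.4% in DCIS and in 16.7% against 15.8% in 10A. E-box letters lay in 18 of 42 DCIS regions (42.9%) against 36.6%, and in 14 of 36 10A regions (38.9%) against 29.8%. Of the 9 RefSeq promoter entries for 7 of the genes, 4 held an E-box (DSC2, DSG2, DSP and JUP), 1 held STAT letters (DSC2), against 7.66% of all promoters, and 0 held AP-1 or TEAD letters, against 4.95% and 14.0%. PKP2 and PKP3 had no entry. A match is a run of letters and not a bound site.

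PKP2, a plakophilin of simple epithelia and heart, lies at chr12:32790745-32896798 on the minus strand and had up regions in DCIS. There 4 of 5 regions were up and the remaining one had 1.27 at an FDR of 0.0518. The gains were 2.02 at chr12:32901301-32901900, 4524 bp before the start (FDR 0.00161), 1.90 at chr12:32897101-32898000 (FDR 0.00174), 1.57 at chr12:32895701-32896600 over exon 1 (FDR 0.0340) and 1.16 at chr12:32891501-32892800 in intron 1 (FDR 0.0288). In 10A, 0 of 4 regions were up, with log2 fold changes of 0.20 to 0.91, 0 of 68 windows up, a lowest unadjusted p of 0.140 and a lowest csaw FDR of 0.214.

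The PKP2 locus was enriched over input in both 10A groups, with 3 regions covering 2000 bp in each. The highest enrichment was 5.52 in 10A shCTRL and 3.64 in 10A shANCO1 cells on the log2 scale. DCIS shCTRL cells had no enriched region at PKP2, and DCIS shANCO1 cells had 1 of 400 bp, chr12:32897201-32897600, at 5.63. This lies inside the 10A shANCO1 region chr12:32897201-32897900.

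PKP3, a plakophilin that binds the broadest set of desmosomal partners, lies at chr11:392614-404908 on the plus strand. In 10A its 2 regions were up, the promoter region chr11:392701-396300 by 0.71 (FDR 0.00671, 10 of 35 windows) and a region past the gene end, chr11:406601-407100, by 0.83 (FDR 0.0219). In DCIS the promoter region had 0.84 and did not pass (FDR 0.0713), and the region past the gene end had -0.11 (FDR 0.947). PKP3 was enriched over input in all 4 groups, over 1400 bp in shCTRL and 2200 bp in shANCO1 cells of each line.

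Plakoglobin, which also occurs in adherens junctions and is a relative of beta-catenin, gained H3K27Ac upstream in both lines. JUP lies at chr17:41754604-41786931 on the minus strand. The upstream region chr17:41792501-41793900 was up by 1.00 in 10A (FDR 0.00649, 11 of 13 windows), and chr17:41792201-41794000 was up by 2.31 in DCIS (FDR 4.61e-05, 15 of 17 windows). It lies between JUP and P3H4, which the annotation names on its other side, so its assignment to JUP rests on distance. In DCIS chr17:41771301-41775000, over exon 2 and parts of introns 1 and 2, was up by 1.89 (FDR 0.000130, 20 of 36 windows), where the 10A regions had 0.41 and 0.19 and were not called. The region with the lowest FDR over JUP in 10A, chr17:41784001-41784200 in intron 1, was up by 1.03 (FDR 0.0162) on 1 window. The promoter regions had 0.73 in 10A (FDR 0.279) and 0.75 in DCIS (FDR 0.434), and neither passed.

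JUP was listed without an enriched region over input in shCTRL cells of either line. In 10A shANCO1 cells it had 1 of 1000 bp, in the upstream region, and in DCIS shANCO1 cells it had 5 covering 2500 bp, 1 of them upstream. The middle 300 bases of the upstream DCIS region are given in the direction of JUP transcription (minus strand), since this is 1 of 3 places that gained in both lines.
JUP upstream, chr17:41792951-41793250: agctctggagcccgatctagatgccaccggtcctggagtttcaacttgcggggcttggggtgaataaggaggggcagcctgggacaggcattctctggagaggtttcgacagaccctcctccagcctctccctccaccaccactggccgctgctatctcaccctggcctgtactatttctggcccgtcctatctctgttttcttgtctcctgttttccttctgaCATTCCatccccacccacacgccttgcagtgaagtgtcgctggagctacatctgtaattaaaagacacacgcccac
The capitals are a TEAD match on the opposite strand. AP-1 letters lay outside this stretch, at 2 sites within the upstream region, and a site of the same kind lay in the DSP intron 1 region that gained in both lines. All 3 are shown on the plus strand with 12 bases on each side.
JUP chr17:41792599-41792629: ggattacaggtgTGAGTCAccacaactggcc
JUP chr17:41793305-41793335: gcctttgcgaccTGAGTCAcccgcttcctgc
DSP chr6:7546263-7546293: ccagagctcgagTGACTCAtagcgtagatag

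Desmoplakin had the lowest median of the 4 classes of protein in DCIS. DSP lies at chr6:7541338-7586714 on the plus strand. In DCIS, 1 of 7 regions was up, against 23.6% of all tested regions, with a median log2 fold change of 0.30. In 10A, 2 of 7 were up, against 43.6%, with a median of 0.51. The region up in both lines was in intron 1, chr6:7543401-7547200 in 10A at 0.81 (FDR 0.0231, 6 of 37 windows) and chr6:7543601-7546400 in DCIS at 1.23 (FDR 0.0319, 3 of 27 windows). The promoter region was up in 10A by 0.64 (FDR 0.0167, 3 of 20 windows). In DCIS the nearest region, 30 bp past the start site, had 0.025 (FDR 0.995, 0 of 15 windows).

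The positions of the regions were then compared between the lines. Of the 42 DCIS regions, 33 overlapped a region tested in 10A by at least 1 bp. Of these 33, 16 were up in DCIS (48.5%), against 28.4% of all such DCIS regions. A 10A region was also up at 3 of them (9.09%), against 16.8%, namely in PKP1 intron 2, upstream of JUP and in DSP intron 1. No 10A region was up at the other 13 (39.4%), against 11.6%. These 13 were 4 each at PKP1 and PKP2, 3 at DSG2, 1 between DSG3 and DSG2, and 1 at JUP, and they included the region with the largest gain. The remaining 9 DCIS regions overlapped no tested 10A region, and 5 of them were up. Seen from 10A, 31 of 36 regions overlapped a tested DCIS region, and 10 of the 31 were up in 10A (32.3%), against 51.0%. Of those 10, 3 were up in both lines (9.68% of the 31), against 17.1%, and 7 in 10A only (22.6%), against 33.9%. The 7 were the promoter regions of DSC2, DSC3, DSG2, DSP and PKP3, the DSG3 intron 1 region and the region past PKP3.

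The enriched regions of these genes covered more bases in shANCO1 than in shCTRL cells of both lines. In 10A, the enriched regions of desmosome genes covered 11000 bp in shCTRL and 20700 bp in shANCO1 cells, a ratio of 1.88, where all enriched regions together had a ratio of 2.79. In DCIS, they covered 14100 bp and 19000 bp, a ratio of 1.35 against 1.08. In 10A, 5 of 9 genes had an enriched region in shCTRL cells and 9 in shANCO1 cells, where 48.5% and 75.7% of all genes had one. In DCIS, it was 7 and 9 genes, where 56.3% and 60.1% of all genes had one. In 10A, DSC2, DSC3, PKP1 and JUP had none in shCTRL cells, and in DCIS, PKP2 and JUP had none. Every region of the 10A tables and of the DCIS shANCO1 table against input passed the FDR (100%), as did 15480 of 15482 DCIS shCTRL regions (100% when rounded), so being listed and being enriched amount to nearly the same. In 10A, enriched length was greater in shANCO1 cells for 8 genes and equal for PKP2. In DCIS, it was greater for 6 and smaller for DSC2, DSG2 and DSG3, of which DSG3 went from 4800 to 2400 bp without a called loss.

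**Figure D4:**
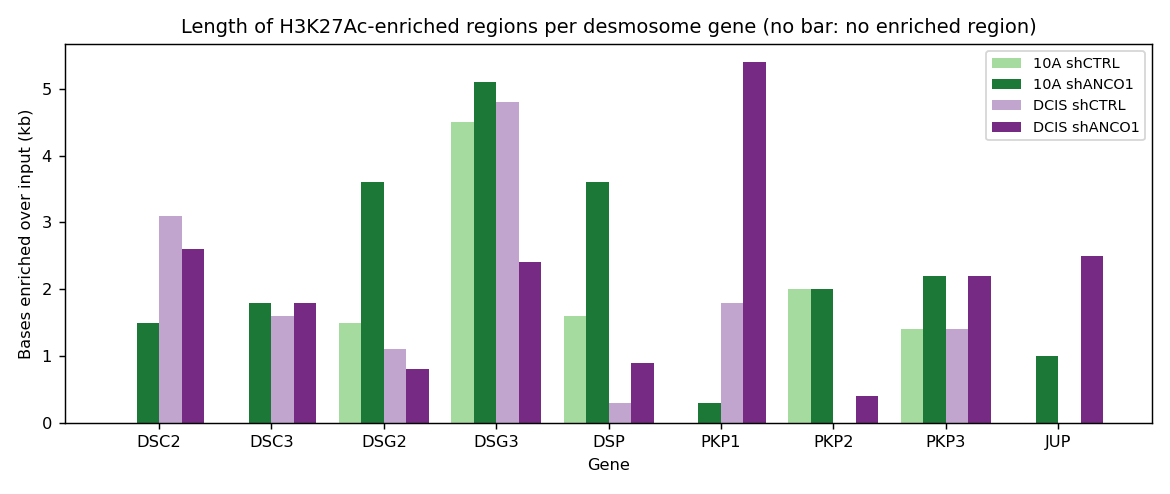
Bars give the summed length in kb of regions enriched over input (FDR under 0.05) for each desmosome gene in the 4 immunoprecipitated groups, from zero, and a missing bar means that no enriched region was listed. PKP1 has its longest bar in DCIS shANCO1 cells (5.4 kb), PKP2 has bars of 2 kb in 10A and 0.4 kb in DCIS shANCO1 cells, and JUP has bars only in shANCO1 cells.

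Of the tested regions of desmosome genes, 11 of 36 in 10A overlapped a region enriched in shCTRL cells, against 23.5% of all tested regions, and 16 overlapped one enriched in shANCO1 cells (44.4%), against 45.2%. In DCIS, 11 of 42 overlapped one enriched in shCTRL cells (26.2%), against 27%, and 21 overlapped one enriched in shANCO1 cells (50%), against 30.3%. Of the 21 up regions in DCIS, 2 were enriched in both groups, 8 in shANCO1 cells only and 11 in neither, where 13.9%, 24.5% and 61.5% of all up regions were. Of the 21 DCIS regions not called, 8 were enriched in both, 3 in shANCO1 cells only, 1 in shCTRL cells only and 9 in neither. Of the 11 up regions in 10A, 5 were enriched in both, 3 in shANCO1 cells only and 3 in neither, against 34.5%, 35.5% and 29.9% of all up regions. Of the 25 not called in 10A, 6 were enriched in both, 2 in shANCO1 cells only and 17 in neither. The shANCO1 libraries enter both kinds of comparison.

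Other junction genes were read the same way. Of 29 DCIS regions of 5 other desmosome and plaque genes, 5 were up (17.2%) and 1 was down, and of 26 regions of 6 such genes in 10A, 9 were up (34.6%) and 1 was down. KAZN (kazrin) had 1 of 7 regions up, by 2.72 (FDR 3.54e-05), and 1 down in DCIS, with a median of 0.38. PKP4, a plakophilin relative that also sits at adherens junctions, had a region up by 1.13 in 10A (FDR 0.000234). A region assigned to EVPL (envoplakin) was up by 1.38 in 10A (FDR 0.000775) but lies over TEN1 and CDK3. PPL (periplakin) also had both directions, with an intronic region at -1.19 that was down in 10A (FDR 0.00872) and a region up by 1.83 in DCIS (FDR 0.00473).

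Adherens junction genes, which encode the classical cadherins, nectins and catenins, had 31 of 79 DCIS regions up (39.2%) and 2 down, with a median log2 fold change of 1.04. In 10A, 36 of 79 were up (45.6%), 0 were down, and the median was 0.76. The DCIS gains with the lowest FDR were at CDH3 (P-cadherin, 2.49, FDR 3.53e-07), NECTIN2 (2.04, FDR 1.39e-06), NECTIN4 (2.58, FDR 1.64e-06) and NECTIN1 (2.41, FDR 2.70e-06). These values are again set beside 23.6% of all DCIS and 43.6% of all 10A regions up.

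Genes with the most similar values were sought by the Euclidean distance over the log2 values of the promoter-coded region of lowest FDR in each table where the gene had one, which need not be the promoter region at the start site. Over all 6 tables and 6323 genes, the nearest to DSG2 was LOC101929633 (distance 0.30), with 0.94 in 10A and -0.97 in DCIS, and the nearest to PKP3 was RALY-AS1 (0.24). JUP, present in 3 tables, was nearest to TLR1 (0.088 over 10166 genes), by its values of 1.03 in 10A and 1.89 in DCIS from the intron 1 region and the region over exon 2. DSC2 had a distance of 0 to DSCAS, which shares its region. PKP1 had no promoter-coded region in 10A and was not compared.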

How the data were processed

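H3K27Ac ChIP-seq and input libraries of 10A and DCIS cells were processed by the authors. Per the study's methods, paired reads were aligned to GRCh38 with BWA and Rsubread, deduplicated with samtools, and tested with csaw, and regions were annotated with ChIPpeakAnno. The submitters' processing notes also name FastQC and HOMER. The deposited log2 fold change is that of a representative window of each region. Each region's deposited p-value and FDR come from the authors' csaw test, with the FDR taken across a whole table. Window numbers, also deposited, refer to tested windows and not to reads. Normalization, window filter, merging distance and choice of input libraries are not given in the sources used here. Columns of the tables were read as the authors' comparison values, as no value per library was at hand, so no test was rerun.

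From these, regions naming a desmosome gene in the overlap, left or right annotation were counted at an FDR under 0.05 and by the authors' direction, with Python 3.11.15, pandas 2.3.3 and numpy 2.4.6. Enriched over input meant FDR under 0.05 and direction up. Start sites were those of Ensembl canonical transcripts in GENCODE release 44, overlap was at least 1 bp, and coordinates are 1-based. All 9 genes were named, with their promoter region, the region of lowest FDR over the gene and the region of largest change, and further regions were described singly after their values were seen. Of the related lists, at most 4 genes were named, those of lowest FDR. Motif letters were counted in 500 bp at the region midpoint. Counting and motif steps were tested on simulated data. The genes, lists and tests were chosen with earlier results of these data known. Alternatives were other FDR and size thresholds, assignment by coordinates or overlap only, at least 5 windows, other lead regions and motif windows of 200 and 1000 bp.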

Additional observations from a re-analysis of the deposited data

How the results depend on the processing

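No paired analysis was possible because the deposited tables hold no value per library, and for the same reason no library could be left out and the depth behind a region is unknown. The 10A count of 11 up regions was the least stable. It was 4 at an FDR under 0.01, which was 11.1%, against 25.5% of all 10A regions. It was 3 where the log2 fold change had to reach 1 in size and 0 at least 1 from the median of the line. For these size thresholds the share of all regions was not counted. The DCIS count of 21 stayed between 15 and 23 under every alternative run. At an FDR under 0.01 its share was 35.7%, against 16.4% of all DCIS regions. Where both shares were counted, that of desmosome regions stayed below all regions in 10A and above them in DCIS. The 17 regions enriched in 10A shCTRL cells became 11 at an FDR under 1e-10. The 10A median turned to −0.10 when the median of all regions was subtracted. With the region of most windows in place of that of lowest FDR, the sign turned for DSG3 in 10A (−0.81), PKP1 in 10A (−1.05), DSC2 in DCIS (−0.014) and DSG3 in DCIS (−1.06). With the region nearest the start site it turned for DSG3 in 10A (−0.81), DSG3 in DCIS (−1.06) and DSG2 in DCIS (−0.95). These come from a different piece of the locus. With 1 gene left out in turn, the median lay between 0.64 and 0.71 in 10A and between 1.10 and 1.41 in DCIS. Motif shares moved with the width searched. E-box letters were more frequent at desmosome regions than over all regions at each width in both lines, a difference that was not tested. TEAD letters changed order against all regions in both lines, and STAT letters in 10A only. Desmosome regions with AP-1 letters were 4.76% in DCIS and 2.78% in 10A at 200 bp, against 6.33% and 7.64% of all regions, and 38.1% and 27.8% at 1000 bp, against 28.7% and 34.9%, so their order against all regions changed with the width in both lines.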
